A study of Caenorhabditis elegans with 2 samples.

Results

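The synaptic vesicle fusion machinery was described here by 10 genes: the SNAREs unc-64, snb-1 and ric-4, their handling factors unc-18, unc-13 and tom-1, the calcium-sensing step with snt-1 and cpx-1, and the active zone and vesicle factors unc-10 and rab-3. The genes were chosen by name, and all 10 had a row among the 41560 gene names of the expression tables. Their loci held 382 of the 183241 listed peaks, 169 of 77986 in the CAR-1(FL) list and 213 of 105255 in the CAR-1(dSm) list.

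The data came from seCLIP-seq in Caenorhabditis elegans, in which RNA crosslinked to a protein is pulled down and sequenced. CAR-1 belongs to the LSm14 family of proteins that bind RNA. 1 library came from strain CZ25180 carrying CAR-1(FL), as its label reads, and 1 from strain CZ26430 carrying CAR-1(dSm), both recovered with GFP-trap, beads that carry a small antibody to GFP. The title ties the study to axon regrowth and calcium in mitochondria, and the comparison asks which RNAs were recovered differently with the 2 forms. The sources used here do not give what dSm changes in the protein, the promoter and tissue of the tagged protein, the age of the worms or how many were pooled. With 1 library per group, strain, culture, library and form cannot be told apart, and no spread between replicates was measured. No input library was used here, so the amount of an RNA and the share of it pulled down cannot be told apart, and neither can fewer cells of a type and less RNA per cell.

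At a synapse, a neurotransmitter vesicle fuses with the plasma membrane when SNARE proteins on both membranes zip into one bundle. Syntaxin and SNAP-25 supply the plasma membrane part and synaptobrevin the vesicle part. UNC-18 and UNC-13 bring syntaxin into the bundle, tomosyn competes for it, complexin holds the bundle ready, and synaptotagmin starts fusion when calcium enters. RIM and Rab3 bring the vesicle to the release site.

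The 10 genes shared a direction in the peak lists: their RNA was recovered more with CAR-1(dSm). The median of the authors' log2 folds over the peaks of a gene, CAR-1(FL) over CAR-1(dSm), was below 0 in each of the 9 members with at least 4 listed peaks. It ran from −1.49 in cpx-1 to −0.88 in tom-1, with a median of −1.14. Across all 9573 genes with at least 4 listed peaks the median was −0.14, 61.5% of the genes lay below 0 and 8.02% lay at −1 or lower. At −1 or lower were 7 of the 9 members. The remaining gene, snb-1, was not in this count, since its locus held only 3 listed peaks, with a median of −0.55. These folds are the authors' values, scaled by them to the total reads of each library. The folds imply a total 1.36 times as large in CAR-1(dSm), and the authors' p-values are best given back by about 4000000 reads in CAR-1(FL).

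**Figure D1:**
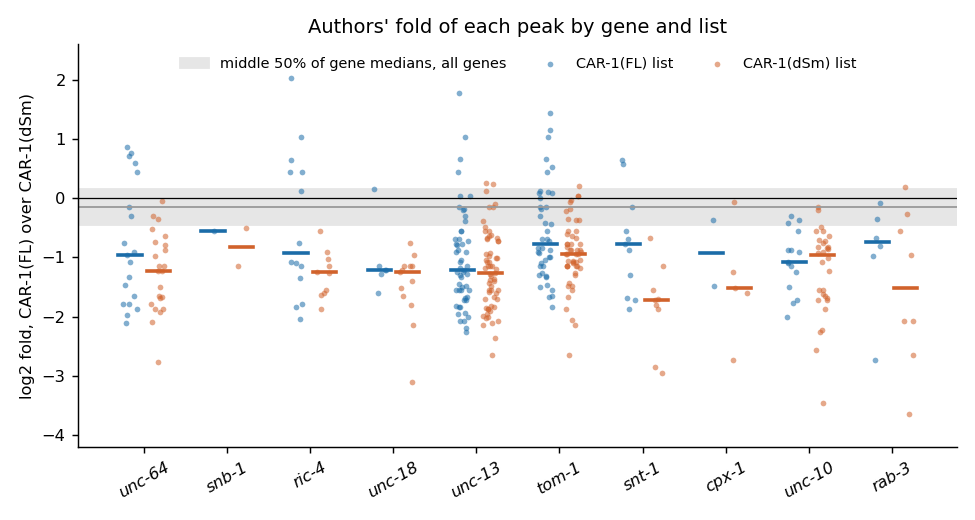
Each point is 1 peak of a gene, placed by the authors' log2 fold with CAR-1(FL) as numerator (vertical axis); blue points come from the CAR-1(FL) list, orange points from the CAR-1(dSm) list, and short bars mark medians. The grey band holds the middle 50% of the gene medians over all genes, from −0.45 to 0.16, with the median of −0.14 as a line; every short bar lies below the band.

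The direction held in each list taken alone. In the CAR-1(FL) list 138 of the 169 member peaks (81.7%) had a higher fold for CAR-1(dSm), against 49.7% of all peaks in that list. The median of that list was below 0 in all 10 members, from −1.22 in unc-13 to −0.55 in snb-1, while it was below 0 in 38.9% of the 11268 genes with a peak in the list and at −0.5 or lower in 12.2%. Of the 213 member peaks of the CAR-1(dSm) list, 206 (96.7%) were higher in CAR-1(dSm), against 70.1% of all its peaks. There the median log2 fold, CAR-1(dSm) over CAR-1(FL), was above 0 in all 10 members and in 75.4% of 12842 genes. Many peaks are in both lists: 74.6% of the member peaks of CAR-1(FL) overlapped one in CAR-1(dSm) with matching strand (95% exact binomial interval 67.3 to 80.9), so the lists are not independent. Over all peaks of CAR-1(FL) this share was 69.3%.

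Single sites also differed. Peaks were counted when the authors' −log10 p and log2 fold both reached 3. Of the member peaks, 1 did so in the CAR-1(dSm) list, in unc-18, against 0.119% of all its peaks and a site in 0.779% of its genes. In the CAR-1(FL) list 0 did, against 0.0167% of peaks and 0.0621% of genes. At the lower log2 fold of 1, with the same p, 28 member peaks in 8 genes were higher in CAR-1(dSm), from 2.21-fold to 8.58-fold, with medians of 49 reads in that library and 10 in the other; ric-4 and tom-1 had none. No member peak of the CAR-1(FL) list reached these values; the largest −log10 p there was 1.11, and a peak with a fold below 0 carries a −log10 p of 0 in these lists. Over all genes with a peak in the CAR-1(dSm) list, 4.65% carried such a peak, and over all its peaks 1.99% were such peaks. For the CAR-1(FL) list those shares were 1.21% of genes and 0.224% of peaks. Of the 28 peaks, 15 lay in unc-13, and 13 remain without that gene. The authors' p compares the reads of these libraries and not the forms. The reads in each peak were worked back from the authors' fold and p, and a 1 in the other library can stand for 0. Sums of reads below cover only peaks of the CAR-1(dSm) list with a −log10 p of at least 0.1, all higher in CAR-1(dSm). The direction of such a sum thus follows from the choice of peaks, and the sums are not scaled for depth. Intervals of reads and folds below are exact 95% Poisson or binomial intervals that cover counting error only. Where a peak of the CAR-1(dSm) list was picked by its p, a fold interval above 1 follows from that choice. All 28 peaks had such an interval.

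The plasma membrane SNARE syntaxin is encoded by unc-64. Its locus (III:13277267-13283769, ce10) held 19 peaks in the CAR-1(FL) list and 23 in the CAR-1(dSm) list, all on the plus strand. Its strongest peak, here the one of highest −log10 p, in the CAR-1(dSm) list (III:13282138-13282187) had 37 reads in CAR-1(dSm) against 4 in CAR-1(FL), a 6.80-fold difference (interval 2.44 to 26.3). Another (III:13280159-13280234) had 64 reads against 15 and was 3.14-fold higher. The intervals of both folds lay above 1, but they cover counting error and not the error between samples. Both sites were picked by their p in this list, so intervals above 1 follow from the choice. The strongest CAR-1(FL)-list peak (III:13279331-13279388) had 12 reads in CAR-1(FL) against 10 in CAR-1(dSm), with a fold of 1.63 whose interval of 0.65 to 4.22 spans 1. By FPKM, which scales fragments by transcript length and library depth, unc-64 stood at 1.08 in CAR-1(FL) (deposited interval 0 to 2.34) against 1.93 in CAR-1(dSm) (0.66 to 3.20). The FPKM intervals overlapped.

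Synaptobrevin, the vesicle SNARE, is encoded by snb-1, the shortest locus of the group at 463 bases (V:6655991-6656454, minus strand by its peaks). Its peak at V:6656130-6656176 had 96 reads in CAR-1(dSm) (interval 77.8 to 117) against 32 in CAR-1(FL) (21.9 to 45.2), a 2.21-fold difference after scaling (interval 1.46 to 3.40). The other CAR-1(dSm) peak, at the 5′ end of the locus and named after its values were seen (V:6656391-6656464), had 179 reads against 93 and was 1.42-fold higher (1.10 to 1.84). The intervals of these folds overlap, and the difference between the sites was not tested. The median peak folds of snb-1, from 3 peaks, were the closest to 0 of the 10 genes in both lists. The expression tables gave another picture, with snb-1 at a listed 0 in CAR-1(FL) but at an FPKM of 4.74 in CAR-1(dSm) (interval 0.50 to 8.97). Since 93 reads of CAR-1(FL) were recovered in 1 peak of this locus, the listed 0 is no measure of absence.

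SNAP-25, the other plasma membrane SNARE, is encoded by ric-4 (V:10261457-10270259, minus strand by its peaks). It was listed at 0 in both expression tables, yet its locus held 14 peaks in the CAR-1(FL) list and 10 in the CAR-1(dSm) list. In its strongest CAR-1(dSm) peak (V:10262566-10262643) 42 reads of CAR-1(dSm) stood against 10 of CAR-1(FL), a 3.09-fold difference (interval 1.52 to 6.90) with a −log10 p of 2.92, just under 3. The strongest member peak of the whole CAR-1(FL) list also lay in ric-4, at V:10263544-10263604, with 6 reads against 2 and an interval of 0.73 to 41.3. That interval spans 1, so no ric-4 site was shown to be higher in CAR-1(FL). Of its 14 peaks in that list, 8 had folds in favour of CAR-1(dSm), while all 10 in the CAR-1(dSm) list did.

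**Figure D2:**
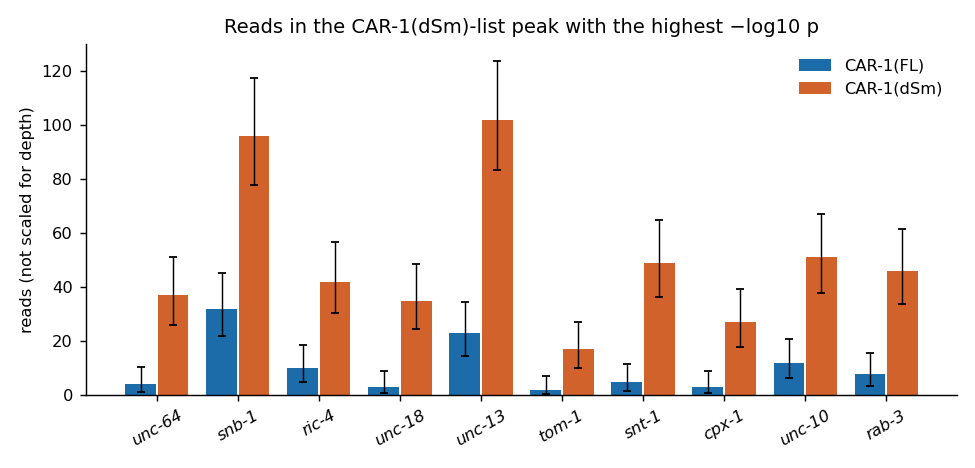
Reads in each library (vertical axis) for each member's strongest peak by −log10 p from the CAR-1(dSm) list, by gene (horizontal axis). Blue bars are CAR-1(FL) and orange bars CAR-1(dSm). Black lines are exact 95% Poisson intervals of the reads, not scaled for depth. In unc-13 the bars stand at 23 and 102 reads and in tom-1 at 2 and 17. Since these peaks were picked by their p for CAR-1(dSm) over CAR-1(FL), the higher orange bars follow from the choice.

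Among the proteins that handle the SNAREs, unc-18 encodes the Munc18 protein that binds syntaxin. Its locus (X:7682366-7685185) held 6 peaks in the CAR-1(FL) list and 13 in the CAR-1(dSm) list, all on the plus strand. The member peak with the largest fold past both thresholds lay here (X:7683352-7683414), with 35 reads in CAR-1(dSm) against 3 in CAR-1(FL), 8.58-fold higher with an interval of 2.70 to 43.6. All 13 peaks of the CAR-1(dSm) list and 5 of the 6 of the CAR-1(FL) list had folds in favour of CAR-1(dSm). Over the recovered peaks of the CAR-1(dSm) list, 412 reads of that library stood against 120 of CAR-1(FL), not scaled for depth. Only peaks higher in CAR-1(dSm) can be recovered from that list, so the direction of this sum follows from the choice. By a small amount, the FPKM pointed the other way from the peak folds, at 1.83 in CAR-1(FL) (interval 0 to 6.40) against 1.64 in CAR-1(dSm) (0 to 4.65). These FPKM values imply 0.644 and 1.19 fragments, so they cannot show a direction, and the authors' deposited table, with 9.41 and 15.1, has the opposite order to the tables of the single libraries.

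The largest gene of the group, unc-13, encodes the Munc13 protein that primes docked vesicles (I:7422780-7453725, plus strand by its peaks). It carried 114 of the 382 member peaks, 53 in the CAR-1(FL) list and 61 in the CAR-1(dSm) list. Of those, 47 and 58 had folds in favour of CAR-1(dSm). The strongest (I:7450393-7450465) had 102 reads in CAR-1(dSm) against 23 in CAR-1(FL), 3.26-fold higher with an interval of 2.06 to 5.37. The next (I:7447348-7447427) had 74 reads against 13 and was 4.19-fold higher, with an interval of 2.30 to 8.23. The peak at I:7450800-7450884 had 65 reads against 12, and that at I:7452159-7452228 had 34 against 4, which is 6.25-fold higher. The peaks at I:7445719-7445784 and I:7447722-7447786 had 58 against 12 and 53 against 10. Folds thus favoured CAR-1(dSm) at many separate sites of 1 locus, and these sites share their gene and libraries. Which transcripts they lie on was not assigned. The sites named above were picked by their p in the CAR-1(dSm) list, so their direction follows from the choice. The strongest CAR-1(FL)-list peak (I:7428889-7428917) had 5 reads against 2, with an interval of 0.557 to 35.7 around its fold.

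The FPKM of unc-13 moved the same way, from 0.858 in CAR-1(FL) (interval 0.474 to 1.24) to 2.0 in CAR-1(dSm) (1.54 to 2.46). That is 2.33-fold, and the intervals lie apart. The values imply 19.99 and 74.5 fragments, the most of any member. The recovered peaks of the CAR-1(dSm) list, all of them higher in CAR-1(dSm), held 475 and 1732 reads, not scaled for depth. The authors' deposited table gives unc-13 a p of 0.0264 and a q of 0.669.

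Tomosyn, encoded by tom-1 (I:5546229-5561305), competes with synaptobrevin for syntaxin and limits priming. Its locus held 42 peaks in the CAR-1(FL) list and 52 in the CAR-1(dSm) list. It had, with rab-3, the median log2 fold closest to 0 of the 9 genes, −0.88, and no peak past a −log10 p of 3. Its strongest peak (I:5560330-5560365) had 17 reads in CAR-1(dSm) against 2 in CAR-1(FL), 6.25-fold higher with an interval of 1.48 to 55.8. At the 5′ edge of the locus, the strongest peak of the CAR-1(FL) list (I:5546165-5546230) had 13 reads against 8, with an interval of 0.849 to 6.15 around a fold of 2.21. The FPKM was 0.834 in CAR-1(FL) (0.023 to 1.64) against 1.53 in CAR-1(dSm) (0.126 to 2.93), and the intervals overlapped. Of the tom-1 peaks, 8 in the CAR-1(FL) list and 6 in the CAR-1(dSm) list lay on the minus strand, and 12 of both lists also fall in the protein-coding locus ostd-1. With the peaks that lie in another locus left out, the median was −1.13 over 8 members, each with at least 4 listed peaks before this step. All peaks of cpx-1 lie in another locus, so that gene dropped out.

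The calcium sensor synaptotagmin is encoded by snt-1 (II:6810924-6815936, plus strand by its peaks), with 11 peaks in the CAR-1(FL) list and 9 in the CAR-1(dSm) list. Its strongest peak (II:6814357-6814481) had 49 reads in CAR-1(dSm) against 5 in CAR-1(FL), 7.21-fold higher with an interval of 2.89 to 23.2. Of its peaks in the CAR-1(dSm) list 3 passed a −log10 p of 3 with a log2 fold of 1. All 9 peaks of that list were higher in CAR-1(dSm), and 9 of the 11 of the other list. Upstream of it, the strongest peak of the CAR-1(FL) list (II:6814046-6814088) had 11 reads in CAR-1(FL) against 10, a scaled fold of 1.5 in favour of CAR-1(FL) whose interval of 0.577 to 3.93 spans 1. The FPKM was 0.482 (0 to 1.11) in CAR-1(FL) against 0.838 (0.142 to 1.53) in CAR-1(dSm), with overlapping intervals.

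Complexin, which binds the assembled SNARE bundle and holds it until calcium arrives, is encoded by cpx-1 (I:1594981-1596177). It had the lowest median log2 fold of the members, −1.49, from 2 peaks in the CAR-1(FL) list and 5 in the CAR-1(dSm) list. Of all genes with at least 4 listed peaks, 2.28% had a median as low or lower. Its strongest peak, near the 3′ end (I:1594991-1595034), had 27 reads in CAR-1(dSm) against 3 in CAR-1(FL), 6.62-fold higher with an interval of 2.04 to 34.1. All 7 peaks also fall in a long ncRNA locus, Y49E10.31, listed at an FPKM of 0 in both libraries. The FPKM of cpx-1 was 0.802 (0 to 2.41) in CAR-1(FL) against 1.05 (0 to 2.53) in CAR-1(dSm), a difference well inside the intervals.

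RIM, the active zone scaffold that gathers Munc13, Rab3 and calcium channels, is encoded by unc-10 (X:7272502-7280256, minus strand by its peaks). Every one of its peaks, 15 in the CAR-1(FL) list and 30 in the CAR-1(dSm) list, was higher in CAR-1(dSm). Its strongest peak (X:7273035-7273101) had 51 reads against 12 in CAR-1(FL), 3.12-fold higher with an interval of 1.64 to 6.44. The FPKM went the other way, at 0.305 (0.052 to 0.557) in CAR-1(FL) against 0.180 (0.005 to 0.355) in CAR-1(dSm). These values imply 5.81 and 4.22 fragments and their intervals overlap. The recovered peaks of the CAR-1(dSm) list, all of them higher in CAR-1(dSm), held 606 reads of that library and 189 of CAR-1(FL), not scaled for depth. Why the peak folds and the FPKM differ was not tested.

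Rab3, the GTPase on the vesicle that RIM binds, is encoded by rab-3 (II:5722303-5727632, minus strand by its peaks). All 6 peaks of the CAR-1(FL) list and 7 of the 8 of the CAR-1(dSm) list were higher in CAR-1(dSm). Its 2 strongest peaks (II:5723133-5723259 and II:5724642-5724723) tied, each with 46 reads in CAR-1(dSm) against 8 in CAR-1(FL), 4.23-fold higher with an interval of 1.98 to 10.4. It was listed at an FPKM of 0 in CAR-1(FL) against 0.518 (0 to 1.54) in CAR-1(dSm).

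**Figure D3:**
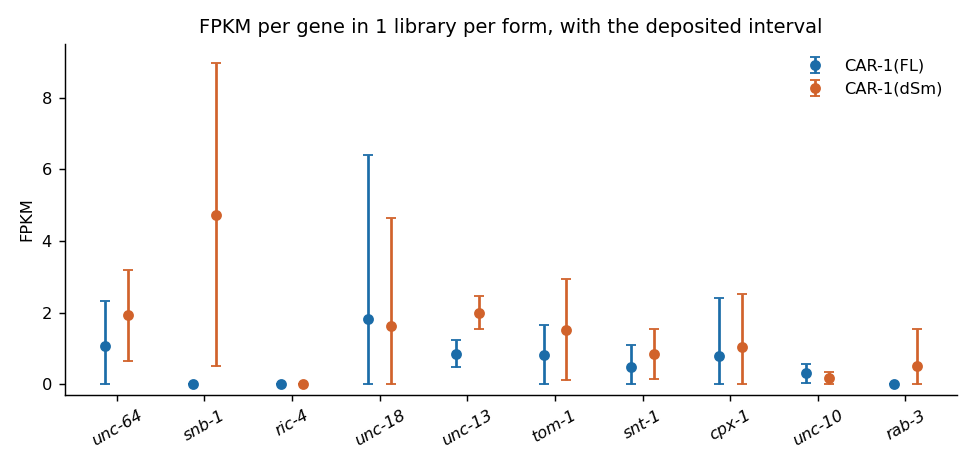
FPKM of each gene in CAR-1(FL) (blue) and CAR-1(dSm) (orange), 1 library each, with bars for the authors' deposited intervals. The intervals lie apart in unc-13, at 0.858 and 2.0, and in snb-1, which is listed at 0 in CAR-1(FL); they overlap or are absent in the other genes.

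Across the group, the FPKM had little depth. Of the 7 genes above 0 in both libraries 5 were higher in CAR-1(dSm) and 2, unc-10 and unc-18, in CAR-1(FL). Of the 10 genes, 6 reached an FPKM of 1 in either library. The difference in log2(FPKM + 1), CAR-1(FL) less CAR-1(dSm), had a median of −0.48 with 5 of the 6 below 0, against 0.07 over all 4361 genes that did, of which 45.5% were below 0. A difference of 1 unit or more in favour of CAR-1(dSm) was reached by 1 of the 6, snb-1 through its listed 0, against 15.2% of all genes. In favour of CAR-1(FL) it was reached by 0, against 14.3%. Intervals lay apart in 2 of the 6 with CAR-1(dSm) higher, against 3.26% of all genes, and in 0 with CAR-1(FL) higher, against 2.91%. The 2 were unc-13 and snb-1, the latter again through its listed 0. In the authors' deposited table unc-13 and snb-1 had p values of 0.0264 and 0.0132, the latter with a listed 0 in CAR-1(FL). The other tested members, unc-18, unc-64 and tom-1, had p values of 0.562, 0.721 and 0.358. Not tested there were ric-4, snt-1, cpx-1, unc-10 and rab-3. Over all 3278 tested genes 5.16% had a p at or under 0.05, and none had a q at or under 0.05. The q of unc-13 and that of snb-1 were each 0.669.

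Each locus was cut into 3 equal parts to see where the difference lay, with peaks on the strand that holds most of them. Of the 28 peaks past a −log10 p of 3 with a log2 fold of 1, 22 (78.6%) lay in the 3′ part, 14 of them in unc-13. Of such peaks over all genes 51.6% lay there. The 3′ part also held 50.2% of the 207 member peaks of the CAR-1(dSm) list, against 38.5% over all genes. Without unc-13 it held 8 of the 13 peaks past these values and 68 of the 146 in all (46.6%). In unc-13 the median log2 fold, CAR-1(FL) over CAR-1(dSm), was −0.80 in the 5′ part, −0.95 in the middle and −1.43 in the 3′ part, with 0, 1 and 14 such peaks. In snt-1 the medians were −0.56, −0.67 and −1.70, and in unc-10 −0.82, −0.88 and −1.59. In unc-64 they were −1.03, −0.31 and −1.67, so the middle was the least different. The middle was the most different in unc-18, at −1.09, −2.14 and −1.25, from only 4, 3 and 12 peaks. The same held in tom-1, at −0.88, −1.11 and −0.93. In rab-3, which had no peak in the 5′ part, the middle stood at −2.40 from 2 peaks and the 3′ part at −0.74. The 3′ part was lower than the 5′ part in 7 of the 8 members with peaks in both, against 51.4% of 8408 genes. The exception was ric-4, at −1.26 in the 5′ part and −1.14 in the 3′ part. The median over members of the 3′ minus the 5′ value was −0.59, against −0.02 over all genes. The last 20% of the loci held 32.3% of the member peaks of the CAR-1(FL) list and 36.2% of the CAR-1(dSm) list, against 25.6% of all gene peaks. Introns, exons and UTRs were not assigned, since the annotation used here is of another assembly than ce10.

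**Figure D4:**
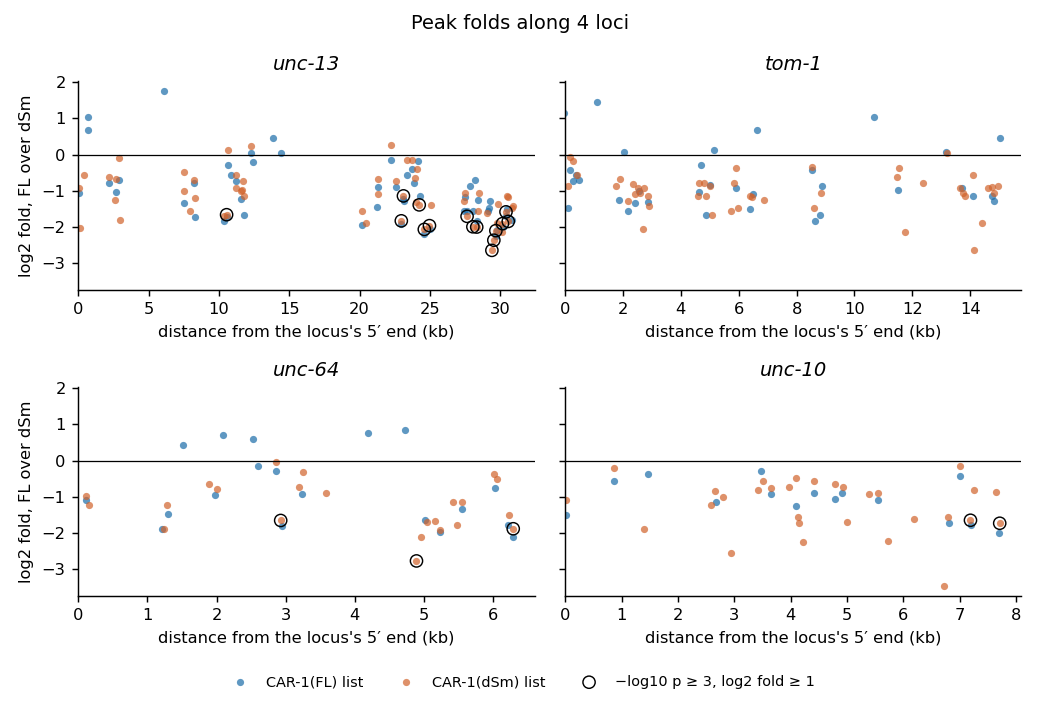
The authors' log2 fold, CAR-1(FL) over CAR-1(dSm), of each peak (vertical axis) against its distance from the 5′ end of the locus in kb (horizontal axis) in unc-13, tom-1, unc-64 and unc-10; blue points are from the CAR-1(FL) list and orange from the CAR-1(dSm) list. The points of unc-13 sink from a median of −0.80 in the 5′ part to −1.43 in the 3′ part, while those of tom-1 stay near −0.88 to −1.11.

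Other genes of the vesicle cycle were described by a list of 54 genes, of which 51 had rows. Of the 46 with at least 4 listed peaks, 40 had a median log2 fold below 0 and 12 were at −1 or lower, with a median of −0.70. Over all genes with at least 4 listed peaks, 61.5% were below 0 and 8.02% at −1 or lower. By group, other SNAREs and their handling factors had a median of −0.14, the value of all genes, with 10 of 15 below 0. Calcium sensors, vesicle proteins and Rab cycle genes had a median of −1.14, with 13 of 13 below 0. Active zone genes had a median of −1.14, with 6 of 6 below 0, and endocytosis genes one of −0.70, with 11 of 12. The 9 fusion genes with at least 4 listed peaks, which leave out snb-1, were thus like the sensors and the active zone in size. The other SNAREs, many of them used in trafficking outside synapses, lay near all genes. The difference between these lists was not tested.

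Of these genes, snt-4, another synaptotagmin, had an FPKM of 1.15 (0.211 to 2.09) in CAR-1(FL) against 3.75 (2.38 to 5.11) in CAR-1(dSm), 3.26-fold, with intervals apart. Its strongest peak had 170 reads against 24, and 22 of its 23 peaks in the CAR-1(dSm) list passed a −log10 p of 3 with a log2 fold of 1. The rabphilin gene rbf-1, whose protein binds Rab3 in mammals, had 0.608 and 1.82, 3.0-fold, and the RIM-binding protein gene rimb-1 had 1.08 and 2.39, 2.22-fold, both with intervals apart. The liprin gene syd-2, an organiser of active zones, was listed at 0 and 0.182. Peaks past a −log10 p of 3 with a log2 fold of 3 lay in snt-3, rbf-1, rimb-1, syd-1 and aex-3, the last an exchange factor gene for Rab3. The strongest in syd-1, which encodes an active zone assembly factor, had 35 reads against 2. The most recovered reads among the other SNARE genes were in nsf-1, encoding the ATPase that takes SNARE bundles apart, with 561 in CAR-1(dSm) against 234 in CAR-1(FL). Among endocytosis genes they were in chc-1, encoding clathrin heavy chain, with 1598 and 677 and a median log2 fold of −0.74. The reads of nsf-1 and chc-1 are unscaled sums over peaks higher in CAR-1(dSm), so their direction follows from the choice. The 1 endocytosis gene not below 0 was unc-41, encoding stonin and named after its values were seen, with a median of 1.55 from 5 peaks. It also was the 1 gene of this list with a CAR-1(FL) peak past a −log10 p of 3 with a log2 fold of 1.

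Markers of other tissues moved in different ways, and genes listed for neurons had median peak folds below 0, as the fusion genes did. For 10 neuronal genes outside the vesicle cycle the median log2 fold was −1.18, with 10 of 10 below 0, against 61.5% of all genes. How far each of the 10, unc-70 and tba-1 among them, is confined to neurons was not checked. In unc-70, both of the 2 CAR-1(FL)-list peaks passed a −log10 p of 3 with a log2 fold of 1 in favour of CAR-1(FL), with a median of 1.39. The summed FPKM of the neuronal genes was 13.5 in CAR-1(FL) against 27.6 in CAR-1(dSm), of which unc-70 gave 5.51 and 10.7. That of the fusion genes was 6.19 and 14.4, or 6.19 and 9.68 without snb-1 and its listed 0. Among the neuronal genes rgef-1 was listed at 0 in both libraries, unc-119 at 0 in CAR-1(FL) and ric-19 at 0 in CAR-1(dSm). Body wall muscle genes had a median of 0.27 with 0 of 8 below 0, and a summed FPKM of 80.3 and 69.98. Epidermis genes had 0.25 with 2 of 8, and 108 and 81.2. Intestine genes had −0.24 with 8 of 8, and 458 and 469, and germline genes −0.14 with 8 of 9, and 44.6 and 38.1. No sperm gene had 4 listed peaks, and their summed FPKM was 6.68 and 4.34. The muscle gene unc-54, named after its values were seen, had a CAR-1(dSm)-list peak 3.42-fold higher in CAR-1(dSm). That peak passed a −log10 p of 3 with a log2 fold of 1. In the CAR-1(FL) list, 3 muscle genes had a peak past these values. The part of the neuronal share of the RNA in the difference of the fusion genes was not tested.

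**Figure D5:**
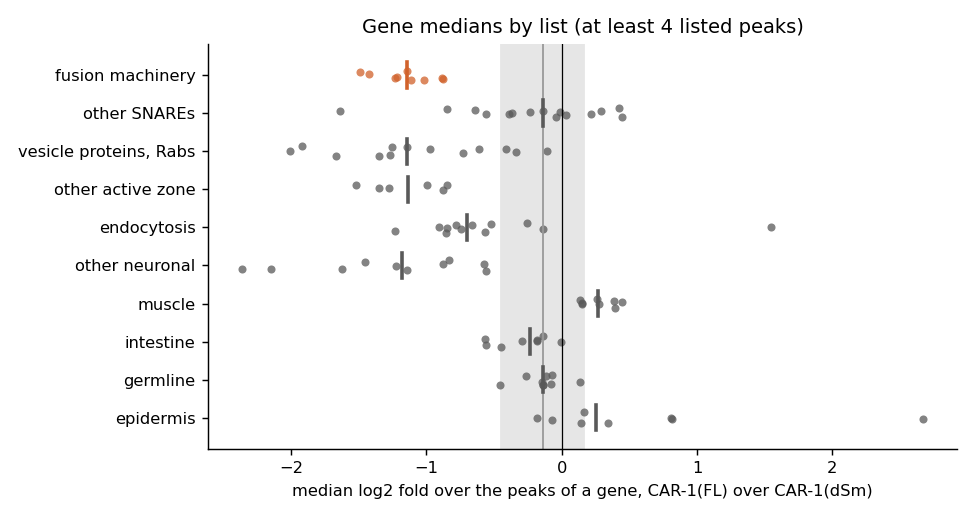
Each point is the median log2 fold, CAR-1(FL) over CAR-1(dSm), over the peaks of 1 gene with at least 4 listed peaks (horizontal axis), by list (rows), with a bar at the median of the list. The fusion genes, in orange, have a median of −1.14, other neuronal genes −1.18 and body wall muscle genes 0.27.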

How the data were processed

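The members, the lists and the thresholds were chosen with earlier results of these data known. seCLIP-seq was measured in 2 libraries, 1 per group. The authors deposited FPKM per gene with a lower and an upper bound, 2 standard errors away, in the Cufflinks layout, and a comparison table with log2 fold changes, p-values and q-values, per the file headers. The authors also deposited 2 peak lists with a −log10 p and a log2 fold per peak, each taken for 1 library over the other. Per the submitters' processing notes, ce10, SAMtools, STAR, cutadapt and UMI-tools were used, with no versions or roles; the sources used here do not give the peak caller. No count table was used here. The lists hold peaks with a −log10 p of 0, so they were not filtered on p.

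Peaks were given to a gene when they overlapped its locus in the FPKM tables by at least 1 base, on either strand, with loci over 100000 bases left out. Folds of the CAR-1(dSm) list were given the opposite sign to match the other list, and the median was taken per gene with at least 4 listed peaks. The FPKM difference is log2(FPKM + 1) for genes at 1 or more in either library, and it understates the change of low genes. Reads per peak were sought as whole numbers that give back the authors' fold and p (Fisher's exact test under an expected or observed count of 5, otherwise a chi-square test with Yates' correction), within a relative tolerance of 0.003 and for a −log10 p of at least 0.1. Of 1000 peaks drawn per list among those with a −log10 p of at least 0.1 and under 400, 99.5% and 99.8% were recovered. Of all member peaks, 22 of 169 in the CAR-1(FL) list and 196 of 213 in the CAR-1(dSm) list were recovered. Of the implied fragments per gene, 60.9% and 59.5% were within 0.05 of a whole number, so no count test was run on FPKM. Intervals cover counting error only. The steps were checked on simulated data.

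Named were the 10 members; other vesicle genes with FPKM intervals apart, with a peak past the thresholds (−log10 p of 3 and log2 fold of 3) or with the most recovered reads of their group; each member's peak of highest −log10 p in each list, where it reached the 0.1 needed to recover reads; and the member peaks past a log2 fold of 1 among the 10 highest by −log10 p. Alternatives covered the pseudocount, the FPKM minimum, centring, the authors' comparison table, each list alone, strand, overlap and peak thresholds. With 1 library per group no test was made. Python 3.11.15, numpy 2.4.6, pandas 2.3.3, scipy 1.17.1 and matplotlib 3.10.9 were used.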

Additional observations from a re-analysis of the deposited data

How the results depend on the processing

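The direction of the peak folds held in every alternative run: all members with enough peaks stayed below 0, also in each list alone, on 1 strand, after centring and without peaks shared with another locus (the last chosen after seeing the data). The median over members was −1.14 and moved to −0.93 in the CAR-1(FL) list alone. By FPKM, 1 member was higher in CAR-1(dSm) by a log2 unit of 1 or more; this count became 2 with a pseudocount of 0.1, 3 in the authors' deposited table and 0 at an FPKM of at least 5, where no member is left. The number of CAR-1(dSm) member peaks past the thresholds was 1, and became 12 at a log2 fold of 2, 28 at 1, and 13 at 1 without unc-13, an alternative chosen after seeing the data. The overlap of CAR-1(FL) member peaks with the other list was 74.6% and became 65.1% when 50% of the peak had to be shared. The median FPKM difference of the members, −0.48, became −0.79 with a pseudocount of 0.1 and −0.74 in the authors' deposited table. That of the other vesicle genes, −0.44, became −0.11 without a filter on low FPKM, −0.20 in the authors' deposited table and −0.20 at an FPKM of at least 5, where 1 gene is left. Of 53 alternative values 13 moved and 40 did not. A median was counted as moved when it changed by over 1.5 times or by more than the spread between genes. A count moved when it changed by over 1.5 times or to or from 0. The overlap share moved when it changed by more than the shorter arm of its binomial interval. No median changed direction. The fold of summed reads was not run, since reads of the 141 CAR-1(FL) member peaks with a −log10 p of 0 could not be recovered. No paired analysis was possible because each group has 1 library. Low FPKM depth limits the fusion genes, of which 4 of 10 stayed under an FPKM of 1 in both libraries.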
